A study of Mus musculus with 90 samples.

Results

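Microtubules are polymers of alpha and beta tubulin, and the 10 genes described here encode 5 alpha isotypes (Tuba8, Tuba4a, Tuba1a, Tuba1b, Tuba1c) and 5 beta isotypes (Tubb1, Tubb2a, Tubb6, Tubb5, Tubb4b). They were chosen by gene symbol, and all 10 were found among the 35869 rows of the authors' table. The libraries were made by SMART-Seq, a full-length method, from single mouse cells: CD41-positive hematopoietic stem cells of bone marrow were taken from mice given polyIC 4 times, 4 weeks after injection, kept 2 days in culture, and picked as resembling megakaryocytes (MK) or not (NMK). Knockout (KO) animals had the genotype MxCre1+/-,RUNX1f/f and wild-type (WT) animals MxCre1-/-,RUNX1f/f, so both carried the floxed Runx1 alleles and both received polyIC, which induces the Mx1 promoter that drives Cre in blood and other tissues. The authors' table without outliers held 5 KO MK, 6 WT MK, 13 KO NMK and 9 WT NMK libraries. The labels name no animal, age, strain background or culture well, so each group counted as 1 sample, no test was run, and every SD below is a spread between cells.

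Each protofilament of a microtubule is built of alpha-beta dimers, and mammals draw both subunits from several genes whose products differ most in the acidic tail at the C terminus. Megakaryocytes extend long microtubule-filled proplatelets, and platelets keep a coiled marginal band of microtubules under the membrane. Tubb1 is the beta isotype of megakaryocytes and platelets and the main one of the marginal band. Mutations of TUBB1 in humans and loss of Tubb1 in mice give few, enlarged platelets. Tuba4a and Tuba8 encode alpha isotypes that platelets also contain, while Tuba1a, Tuba1b, Tuba1c, Tubb5 and Tubb4b are used by many cells, dividing ones included.

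The ends of the coding sequences are printed because the tails are where the isotypes part most. The last codon also shows whether an alpha chain is made with a terminal tyrosine, the residue that cells remove and put back. The last 48 coding bases before the stop codon are given 5′ to 3′ from the GENCODE M21 transcripts of GRCm38, with the last codon in capitals. For 3 alpha genes:
Tuba8: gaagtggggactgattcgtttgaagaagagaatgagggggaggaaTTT
Tuba4a: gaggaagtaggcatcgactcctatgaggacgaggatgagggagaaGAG
Tuba1c: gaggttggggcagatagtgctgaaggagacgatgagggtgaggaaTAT
For the beta genes, Tubb6 left out:
Tubb1: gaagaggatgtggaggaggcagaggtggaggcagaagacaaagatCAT
Tubb2a: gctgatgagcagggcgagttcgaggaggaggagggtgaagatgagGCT
Tubb5: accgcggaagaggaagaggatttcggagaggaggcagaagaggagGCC
Tubb4b: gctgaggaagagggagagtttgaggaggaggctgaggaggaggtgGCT
Among these, a tyrosine codon (TAT) stood last in Tuba1c. Tuba8 ended in TTT, a phenylalanine codon, and Tuba4a in GAG, a glutamate codon. Over the whole coding sequence Tubb1 shared 73.9 to 76.8% of bases with the other 4 beta members, which shared 80.8 to 84.8% with each other. Tuba8 shared 80.3 to 82.2% with the other alpha members. Tuba1a, Tuba1b and Tuba1c were far closer to each other, with identical stretches of up to 468 bases, so reads could be split between them. How multiply mapped reads were treated is not given in the sources used here, and the values of Tuba1a, Tuba1b and Tuba1c are uncertain in that respect.

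In GRCm38 coordinates of that annotation Tubb1 lies on chromosome 2 (174450695 to 174457882, plus strand), Tuba8 on chromosome 6 (121210696 to 121226854, plus), Tuba4a on chromosome 1 (75214228 to 75219865, minus) and Tubb5 on chromosome 17 (35833921 to 35838306, minus). Tuba1b, Tuba1a and Tuba1c lie near each other on chromosome 15. Exons of Tuba8, Tuba4a, Tubb4b and Tuba1b overlap those of a gene on the opposite strand (Gm15856, Stk16, Fam166a and Gm41396), and Gm49450 overlaps Tuba1a and Tuba1b on the same strand. Whether strand was used in counting is not given in the sources used here, so reads of such pairs cannot be told apart.

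Several libraries stood apart before any tubulin was considered. Values were TPM, a length-corrected share scaled to 1 total, so the depth is unknown. A housekeeping score, the mean log2(TPM + 1) of 16 widely expressed genes, was 4.69 in KO NMK B1-1b and 2.22 in KO NMK B1-2a, and 8.38 or more in the other 31 libraries. Comparisons with KO NMK cells are given with and without these 2 libraries. The 5 WT MK libraries whose titles have no prefix resembled each other more than any other pair did, with correlations of log2(TPM + 1) over genes of 0.972 to 0.981, against at most 0.948 for other pairs within a group. Whether they are 5 cells could not be settled from the values. The WT MK spread may be too small for that reason, and counts of WT MK libraries may count a cell more than once. Within groups some titles share a number and differ by a suffix, as in KO MK 1A and 1B. What the suffixes mean, and whether such libraries are related, is not given in the sources used here. Runx1, the targeted gene, was listed at 8.9 to 47.5 TPM in KO MK, 7.6 to 22.2 in WT MK, 0 to 41.5 in KO NMK and 0 to 15.7 TPM in WT NMK libraries. A gene-level TPM covers exons outside the deleted part and does not check the deletion, so KO and WT stand for libraries labelled so.

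The MK label was checked against 18 megakaryocyte and platelet markers. Their score, again a mean log2(TPM + 1), was 9.13, 7.91 and 8.21 in KO MK 1B, B1-3 and 1A, but 2.34 in KO MK B1-4 and 2.62 in KO MK 2. It was 5.32 to 6.39 in WT MK libraries. KO NMK libraries over the housekeeping limit had 1.17 to 3.43 and WT NMK libraries 0.961 to 2.50. KO MK B1-4 and 2 therefore lay within the KO NMK range and went against their label: Pf4, platelet factor 4, was at 65.8 and 213.7 TPM there, against 13751.7 to 26884.7 TPM in the other 3 KO MK libraries. All 5 are kept in the KO MK group below, and values are given per library. Of the 12 stem and progenitor markers, Ly6a was singled out after its values were seen. It was at 199.0 TPM in KO MK B1-4 and 342.2 TPM in KO MK 2, and at 0.1 TPM or less in the other 3. Slamf1, of the same list, averaged 104.9 TPM in KO MK, 2.15 in KO NMK over the housekeeping limit and 0 TPM in WT NMK libraries. Against these KO NMK libraries, 2 of the 12 were at least 2-fold higher in KO MK and 4 lower (26.0 and 6.97% of all genes).

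Tubb1 was nearly absent from these cultured cells. It was listed at 5.1 TPM in KO MK 1B, 7.6 in B1-3, 5.8 in 1A, 0.1 in B1-4 and 0 TPM in KO MK 2. All 6 WT MK libraries were at 0.1 TPM or less, although their platelet markers were high. The 11 KO NMK libraries over the housekeeping limit ranged up to 0.3 TPM, and of the 9 WT NMK libraries 1 (4A) had 3.1 TPM and the rest 0.1 TPM or less. The 3 KO MK libraries with 5 TPM or more were thus the 3 with platelet marker scores of 7.91 or more, while the WT MK libraries, with intermediate scores, had none. The share of libraries with 1 TPM or more was 60% in KO MK (3 of 5, exact 95% interval 14.7 to 94.7%). It was 0% in WT MK (0 of 6, interval up to 45.9%). These intervals cover counting error only and do not compare the genotypes. They take each library as a separate cell, which is in doubt for WT MK and not settled by the labels for KO MK 1A and 1B. Tubb1 gave at most 0.58% of beta tubulin mRNA in KO MK libraries, and 1.47% in WT NMK 4A. It gave 2.12% in KO NMK B1-1b, of low housekeeping score, at 1.4 TPM.

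The one library with much Tubb1 was a KO MK library (replicate 1) that the authors left out as an outlier. It had 131.0 TPM, 16.3% of its beta tubulin mRNA. Its housekeeping score of 8.56 lay below the kept KO MK libraries (8.98 to 9.61), its platelet marker score of 8.45 lay among those of KO MK 1B, 1A and B1-3, and its mitosis score, defined below, was 0.15. Tubb2a gave 46.4% of its beta tubulin mRNA (372.7 TPM), Tuba1a 68.7% of its alpha tubulin mRNA (1266.9 TPM), and Tubb5 only 5.4%.

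**Figure D1:**
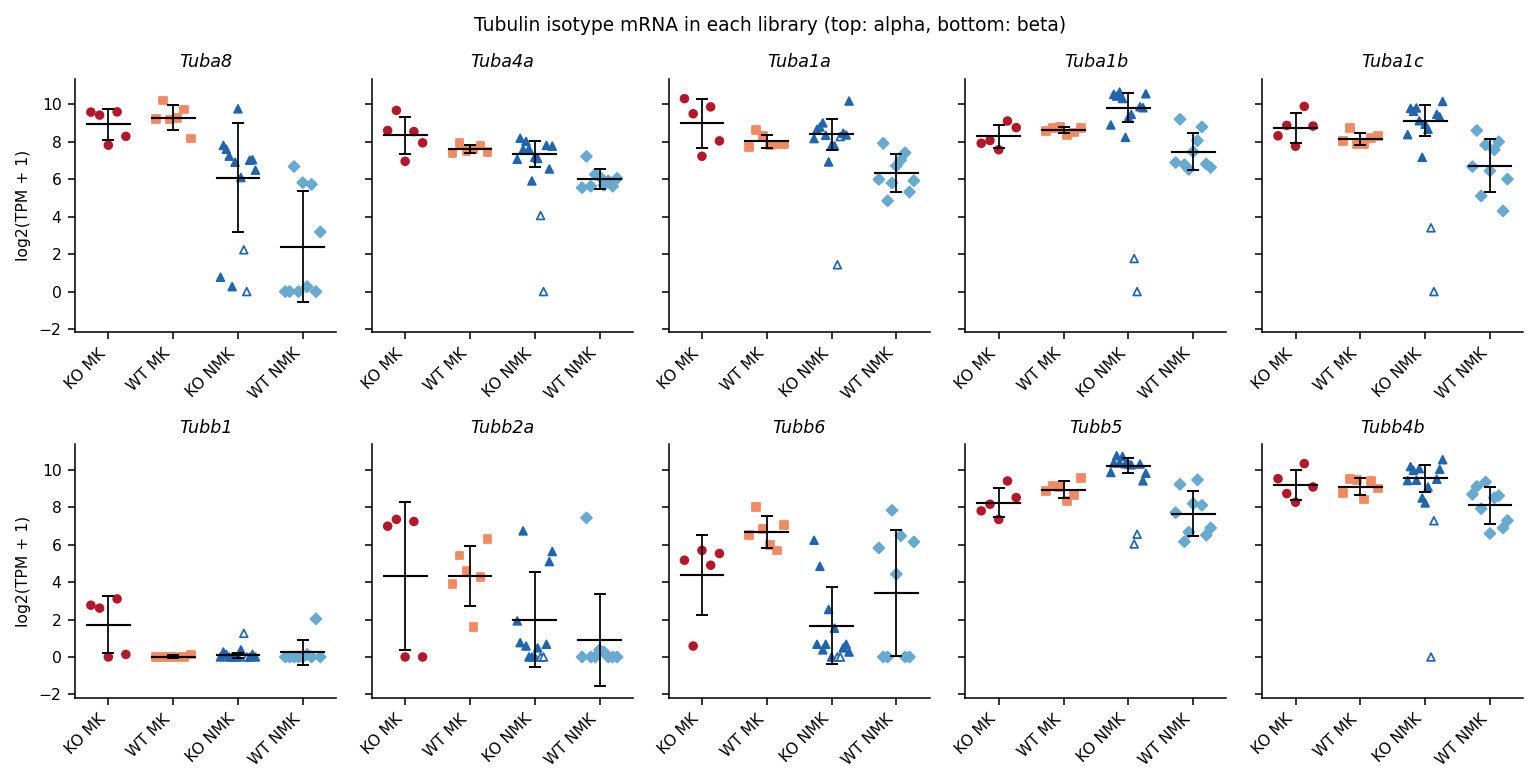
Levels of the 5 alpha isotypes (top) and 5 beta isotypes (bottom) in the 33 kept libraries, as log2(TPM + 1). Points are single cells, lines and bars the mean and SD between cells, and open triangles the 2 KO NMK libraries of low housekeeping score, left out of mean and SD. Tuba8 stands high in every MK library, Tubb1 near 0 outside 3 KO MK libraries, 1 WT NMK library and 1 of the open triangles, and Tubb5 highest in KO NMK cells.

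Tuba8 was high in every kept MK library of both genotypes. It was at 687.9, 775.9, 767.9, 312.6 and 225.0 TPM in KO MK 1B, B1-3, 1A, B1-4 and 2, and ranged over 288.2, a median of 603.6 and 1184.5 TPM in WT MK libraries. KO NMK libraries over the housekeeping limit ranged from 0.2 TPM over a median of 128.4 to 868.2 TPM (4B), and WT NMK libraries from 0 over a median of 0.2 to 101.5 TPM. Tuba8 was thus detected in every MK cell and in most KO NMK cells, while 5 of 9 WT NMK cells had 0.2 TPM or less. The 2 KO MK libraries of low platelet marker score still had more Tuba8 than any WT NMK library, and less than the other 3. KO MK and WT MK libraries overlapped. KO NMK 4B lay above all 5 KO MK libraries, and KO NMK 1A (223.2 TPM) next to KO MK 2. The left-out KO MK library 1, whose platelet marker score was high, had 81.2 TPM of Tuba8, 4.40% of its alpha tubulin mRNA.

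Tuba4a, the other alpha isotype known from platelets, had a smaller difference in level between MK and NMK cells than Tuba8. It was at 818.6, 373.4, 388.8, 245.7 and 123.4 TPM in KO MK 1B, B1-3, 1A, B1-4 and 2, and at 166.6 to 244.1 TPM in WT MK libraries. It was at 59.1 to 291.2 TPM in the 11 KO NMK libraries and 45.8 to 148.2 TPM in WT NMK libraries. All 6 WT MK libraries lay above all WT NMK libraries, whereas KO MK and KO NMK libraries overlapped. Both were so for Tuba8 too.

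Because RUNX1 is the targeted factor, the promoters of Tubb1, Tuba8 and Tuba4a are printed, from RefSeq on GRCm38.p6. Each runs from 250 bases before to 50 bases after the RefSeq start of the gene. These starts differ from those of the GENCODE annotation above. The Tuba4a window lies wholly inside the GENCODE gene, and the Tubb1 window ends before the GENCODE start. The windows were searched on both strands for the RUNX letters TGTGGT and, as a second form, TGCGGT. The GATA letters were AGATAA and, as a second form, TGATAA. The ETS letters were AGGAAG and, as a second form, CGGAAG. Capitals mark the matches. Tubb1 is at chr2:174450345-174450644 (plus), Tuba8 at chr6:121210484-121210783 (plus) and Tuba4a at chr1:75219245-75219544 (minus), each written along its gene's strand:
Tubb1: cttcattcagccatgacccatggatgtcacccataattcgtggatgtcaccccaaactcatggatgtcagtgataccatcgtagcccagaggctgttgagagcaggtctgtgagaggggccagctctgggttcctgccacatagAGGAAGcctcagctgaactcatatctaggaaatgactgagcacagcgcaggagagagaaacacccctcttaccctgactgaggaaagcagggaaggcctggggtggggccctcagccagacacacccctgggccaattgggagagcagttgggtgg
Tuba8: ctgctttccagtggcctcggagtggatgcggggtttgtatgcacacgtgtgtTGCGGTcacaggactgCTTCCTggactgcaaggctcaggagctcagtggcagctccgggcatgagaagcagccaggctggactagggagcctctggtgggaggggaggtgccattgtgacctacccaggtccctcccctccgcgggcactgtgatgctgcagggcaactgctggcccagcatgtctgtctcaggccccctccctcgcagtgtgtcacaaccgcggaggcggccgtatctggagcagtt
Tuba4a: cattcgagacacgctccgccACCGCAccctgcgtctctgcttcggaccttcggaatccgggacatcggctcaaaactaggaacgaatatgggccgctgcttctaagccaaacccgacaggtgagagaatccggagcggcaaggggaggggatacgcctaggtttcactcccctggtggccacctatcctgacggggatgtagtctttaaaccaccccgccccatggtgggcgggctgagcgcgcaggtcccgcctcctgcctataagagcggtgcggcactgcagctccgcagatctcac
The Tubb1 window held 1 ETS match (AGGAAG), Tuba8 1 RUNX match (TGCGGT) and 1 ETS match on the opposite strand (AGGAAG, written CTTCCT), and Tuba4a 1 RUNX match on the opposite strand (TGCGGT, written ACCGCA). Of all 32851 promoters of this length, 22.4% held RUNX, 18.6% GATA and 46.5% ETS letters, and of the 9 members with an entry 2, 1 and 3 did. The matches describe the letters and do not show binding.

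Tubb2a and Tubb6, beta isotypes of many tissues, were near 0 in some KO MK and NMK cells and far higher in others. Every WT MK library had 1 TPM or more of both. Tubb2a was at 162.5, 150.0 and 125.9 TPM in KO MK 1B, B1-3 and 1A and at 0 TPM in KO MK B1-4 and 2. WT MK libraries ranged from 2.0 over a median of 20.8 to 77.6 TPM, with none at 0. It was below 3 TPM in 8 of 11 KO NMK libraries and below 1 TPM in 8 of 9 WT NMK libraries, where 1A had 171.9 TPM. Within the KO MK group Tubb2a was thus high in the same 3 libraries as Tubb1. Tubb2b, a beta gene not among the members, was at 15.9, 21.8 and 15.0 TPM in KO MK 1B, B1-3 and 1A. It was at 0.2 and 0.1 TPM in KO MK B1-4 and 2. Its coding sequence was not compared with that of Tubb2a. Whether reads were split between them is not known here, and Tubb2a values are uncertain in that respect.

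Tubb6 behaved otherwise. It was at 0.5, 28.9, 35.0, 45.2 and 50.9 TPM in KO MK 1B, B1-3, 1A, B1-4 and 2, and at 50.6 to 258.7 TPM in WT MK libraries, so the groups overlapped in KO MK 2 and WT MK 4 only. In KO NMK libraries over the housekeeping limit it ranged from 0 over a median of 0.6 to 74.4 TPM, and in WT NMK libraries from 0 over a median of 20.5 to 227.5 TPM. Among KO NMK cells 36.4% had 1 TPM or more (4 of 11, exact 95% interval 10.9 to 69.2%). Among WT NMK cells 55.6% did (5 of 9, 21.2 to 86.3%). These intervals too cover counting error only and do not compare the genotypes.

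Tubb5 and Tubb4b carried most of the beta tubulin mRNA in every group. Tubb5, the beta isotype of most dividing cells, was at 285.3, 675.7, 222.8, 365.6 and 161.6 TPM in KO MK 1B, B1-3, 1A, B1-4 and 2, and ranged over 317.1, a median of 499.3 and 765.1 TPM in WT MK libraries. It was at 679.6 to 1719.7 TPM, with a median of 1267.4, in the 11 KO NMK libraries and at 70.3 to 704.3 TPM, with a median of 208.1, in WT NMK libraries. The 5 KO MK libraries all lay below the 11 KO NMK libraries, the 2 of low platelet marker score included. The highest KO MK value (B1-3) was just below the lowest KO NMK value (B1-3b). Tubb4b overlapped between every pair of groups, with means of 658.0 ± 384.1 TPM in KO MK (SD, n = 5), 565.0 ± 161.8 in WT MK (n = 6), 822.2 ± 360.9 in KO NMK (n = 11) and 330.7 ± 193.8 TPM in WT NMK libraries (n = 9).

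The ratio of Tubb5 to Tubb4b separated KO MK from most KO NMK cells. It was 0.674, 0.526, 0.303, 0.676 and 0.526 in KO MK 1B, B1-3, 1A, B1-4 and 2, so Tubb4b exceeded Tubb5 in all 5. It was above 1 in 2 of 6 WT MK, 9 of 11 KO NMK and 3 of 9 WT NMK libraries. The 2 KO NMK libraries below 1, B1-5 (0.604) and B1-3b (0.652), lay within the KO MK range.

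The 3 near-identical alpha genes gave most alpha tubulin mRNA in NMK cells on average. They did so in MK cells too, where Tuba8 and Tuba4a together averaged 38.5% in KO MK and 47.0% in WT MK libraries. Tuba1b was at 267.7, 552.7, 241.7, 432.5 and 189.9 TPM in KO MK 1B, B1-3, 1A, B1-4 and 2, and at 329.1 to 442.2 TPM in WT MK libraries. KO NMK libraries had 300.9 to 1611.6 TPM, with a median of 937.6, and WT NMK libraries 91.5 to 589.2 TPM, with a median of 117.7. Tuba1c averaged 482.8 ± 281.6 TPM in KO MK, 292.5 ± 73.1 in WT MK, 635.7 ± 287.4 in KO NMK and 151.7 ± 122.7 TPM in WT NMK libraries. Both thus had their highest mean in KO NMK and their lowest in WT NMK cells.

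Tuba1a, an alpha isotype best known from neurons, was higher in the KO MK libraries of high platelet marker score than in any WT MK library. It was at 723.0, 933.5 and 1266.0 TPM in KO MK 1B, B1-3 and 1A, at 264.2 and 149.0 TPM in KO MK B1-4 and 2, and at 211.5 to 393.0 TPM in WT MK libraries. KO NMK libraries had 120.4 to 1157.3 TPM, with a median of 329.1, and WT NMK libraries 27.8 to 241.6 TPM, with a median of 62.7. KO NMK B1-5, at the top of its range, lay above KO MK 1B and B1-3. The level thus overlapped between KO MK and KO NMK cells, and the ratio to Tuba1b is given for that reason. The ratio of Tuba1a to Tuba1b was 2.70, 1.69 and 5.24 in the first 3 and 0.611 and 0.785 in the other 2 KO MK libraries. It stayed below 1 in all 6 WT MK (0.544 to 0.928), all 11 KO NMK (0.255 to 0.763) and all 9 WT NMK libraries (0.254 to 0.607). Since the genes share long stretches, the ratio depends on how shared reads were assigned, though that step was the same for all libraries as far as the labels say.

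**Figure D2:**
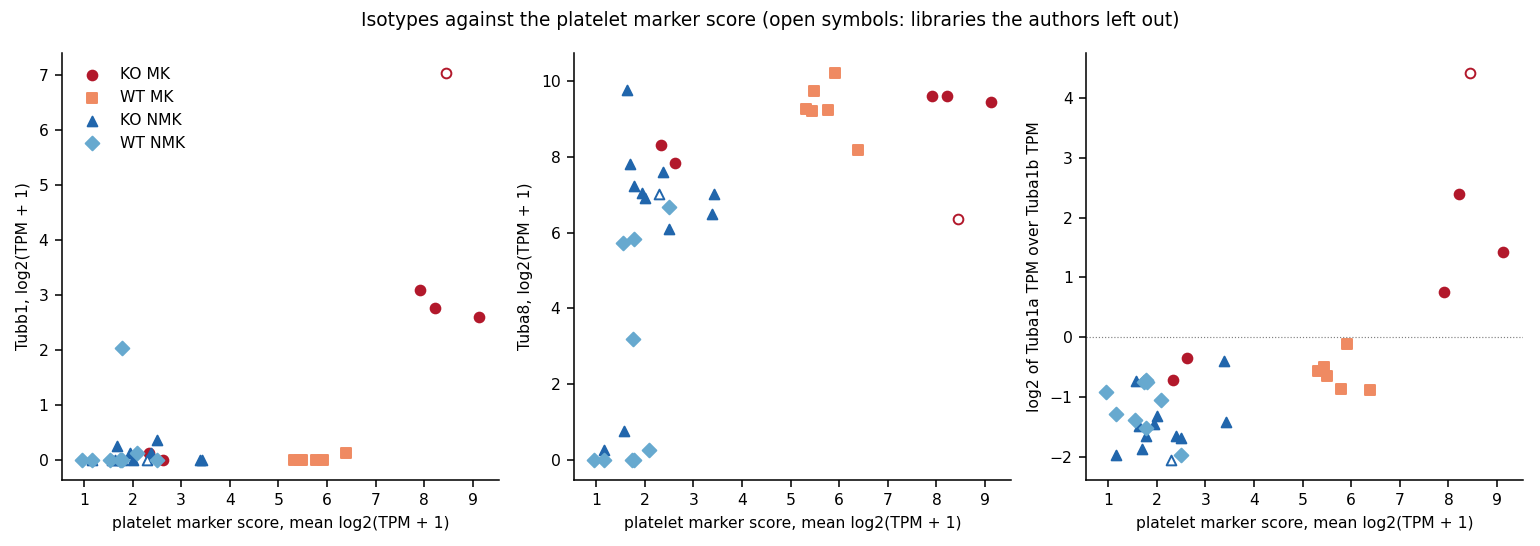
Tubb1 (left), Tuba8 (middle) and the log2 ratio of Tuba1a to Tuba1b TPM (right) against the platelet marker score of each library with a housekeeping score of 8 or more, with open symbols for the 2 such libraries the authors left out. The KO MK libraries with scores of 7.91 or more hold all Tuba1a to Tuba1b ratios above 1 (above 0 on the log2 axis), and the left-out KO MK library has the highest Tubb1 value.

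As shares of the summed mRNA of the 5 alpha members, Tuba8 gave 22.7 ± 2.97% in KO MK (SD, n = 5), 36.1 ± 8.87% in WT MK (n = 6), 8.08 ± 10.5% in KO NMK (n = 11) and 5.67 ± 10.5% in WT NMK libraries (n = 9). It was the highest alpha isotype in 1 of 5 KO MK, 5 of 6 WT MK, 1 of 11 KO NMK and 0 of 9 WT NMK libraries. Tuba1b was the highest in 10 of 11 KO NMK and 8 of 9 WT NMK libraries. The KO MK share of Tuba8 kept within 18.2 to 25.7% although its level ranged over 225.0 to 775.9 TPM and 2 of the libraries had low platelet marker scores. In WT MK libraries 5 of 6 had 33.4% or more and B1-1 had 20.1%.

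Tuba8 and Tuba4a together, whose printed ends have no last tyrosine codon, made up 38.5 ± 7.54% of alpha tubulin mRNA in KO MK, 47.0 ± 8.39% in WT MK, 15.7 ± 10.1% in KO NMK and 20.03 ± 11.9% in WT NMK libraries. The difference was 20.7 percentage points between KO MK and KO NMK cells, or 22.8 without the 2 libraries of low housekeeping score, and 26.9 points between WT MK and WT NMK cells. Between KO MK and WT MK cells it was -8.42 points, about the SD of each group. Single cells crossed these lines: KO NMK 4B had 43.0% and WT NMK 1B 46.8%, within the MK ranges.

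**Figure D3:**
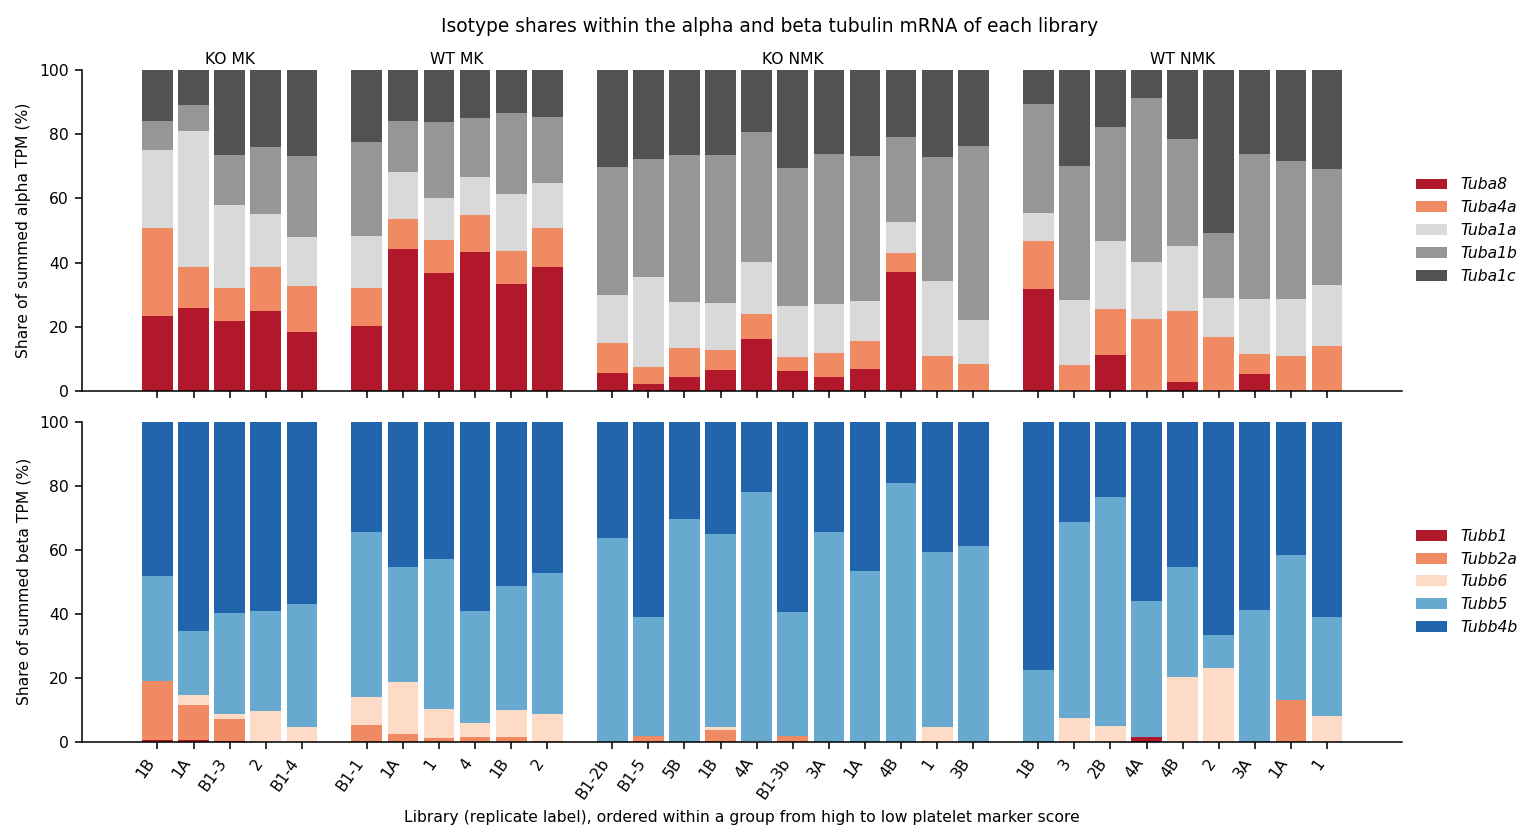
Share of each isotype in the summed alpha (top) and summed beta (bottom) tubulin TPM of the 31 kept libraries over the housekeeping limit, 1 bar per library, ordered within a group from high to low platelet marker score. Red and orange alpha segments (Tuba8 and Tuba4a) take 32.0 to 54.8% of every MK bar, and the Tubb1 segment is barely visible anywhere.

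Of the summed beta members, Tubb4b gave 57.9 ± 6.20% in KO MK, 46.8 ± 8.30% in WT MK, 38.5 ± 13.3% in KO NMK and 51.3 ± 17.3% in WT NMK libraries. Tubb5 gave 30.7 ± 6.75, 41.9 ± 6.60, 60.2 ± 13.9 and 39.9 ± 18.6% in the same 4 groups. Of the rest, Tubb2a gave 18.5% in KO MK 1B and 11.2% in KO MK 1A, and Tubb6 gave 16.2% in WT MK 1A. The ratio of summed alpha to summed beta TPM had higher means in MK cells. It was 2.25 ± 0.749 in KO MK, 1.57 ± 0.419 in WT MK, 1.14 ± 0.400 in KO NMK and 0.903 ± 0.347 in WT NMK libraries. The 5 KO MK libraries ranged over 1.67 to 3.38 and WT MK libraries over 0.968 to 2.20. KO NMK libraries ranged over 0.453 to 1.70 and WT NMK libraries over 0.459 to 1.47, so MK and NMK ranges overlapped. Alpha sums and shares include Tuba1a, Tuba1b and Tuba1c, so the doubt over shared reads extends to them.

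WT MK libraries had higher TPM of nearly all members than WT NMK libraries. Differences below are in mean log2(TPM + 1), a scale that understates low genes, with the pooled SD between cells. Of the 9 members averaging at least 1 TPM in either group, 8 were at least 2-fold higher and none lower, in a comparison where 37.4% of all 11562 genes were that much higher and 5.22% lower. Tuba8 led with 6.89 (pooled SD 2.35), followed by Tubb2a (3.44, SD 2.17) and Tubb6 (3.27, SD 2.68). Tuba8 and Tuba4a (1.601, SD 0.43) were the 2 members with every WT MK library above every WT NMK library, as were 4.58% of genes, and 0 members lay lower throughout (0.528%). The median over members was 1.601, against 0.70 over all genes. Computed from ratios of mean TPM, 4 members were 2-fold higher. Over all libraries, those left out by the authors included, 2 were higher and 2 lower, and summed beta tubulin was at -0.95 and Tubb4b at -2.18. The WT libraries added there all had low housekeeping scores, of 3.28 to 5.17, under the limit of 6. For these alternatives the share of all genes past 2-fold was not computed, so the member counts have no background. The number of genes above 0 TPM also separated these groups, at 14089 to 15252 in WT MK and 5475 to 11715 in WT NMK libraries, and 17 of 22 mitosis genes were at least 2-fold higher (median 1.72). The part of either in the tubulin differences was not tested. The summed alpha members were 1.91 higher (SD 0.70) without overlap and the summed beta members 1.05 higher (SD 0.77).

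KO MK cells differed from KO NMK cells in both directions. Here too the number of genes above 0 TPM did not overlap, at 11896 to 14487 in KO MK and at most 10987 in KO NMK libraries, and its part was not tested. Over all kept libraries 6 members were at least 2-fold higher (34.2% of all 13365 genes) and 1 was lower (3.84%), and 0 members were without overlap (0.299% of genes higher and 0.015% lower). Without the 2 KO NMK libraries of low housekeeping score 5 were higher (26.0% of 12223 genes) and 2 lower (6.97%). The Tubb5 difference was -1.37 (SD 1.37) over all kept libraries and -1.98 (SD 0.53) without those 2, where every KO MK library lay below every KO NMK library, as for 0.221% of genes, and 0 members were higher without overlap (0.368%). Within titles of prefix B1 and without those 2 libraries the Tubb5 difference was -0.88, and within titles without a prefix -2.60. Prefix B1 stood in the titles of 2 KO MK, 1 WT MK, 5 KO NMK and 0 WT NMK kept libraries. The KO MK ones were B1-3 and B1-4, of which B1-4 had a low platelet marker score.

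Of the other members, past their pooled SD and higher in KO MK cells without the 2 libraries were Tuba8 (2.86, SD 2.50), Tubb6 (2.71, SD 2.08), Tubb1 (1.64, SD 0.82) and Tuba4a (1.0, SD 0.78). Tuba1b was lower (-1.54, SD 0.74), while Tubb2a (2.32, SD 3.01), Tuba1c (-0.39), Tubb4b (-0.35) and Tuba1a (0.58) were within their pooled SD. Tubb2a was at -0.18 within prefix B1 without the 2 libraries. The difference of summed alpha tubulin was -0.00 (SD 0.75) and that of summed beta tubulin -1.01 (SD 0.47). Over all kept libraries these sums were 0.68 (SD 1.69) and -0.40 (SD 1.41), within their SD.

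Between KO MK and WT MK cells the members went both ways. Of 10 members, 1 was at least 2-fold higher (12.4% of all 11796 genes were) and 1 lower (9.27%), with a median of 0.03 against 0.09 over all genes, and 0 members were without overlap (2.38% of genes higher and 1.85% lower). The differences were 1.70 for Tubb1 (SD 1.02) and -2.30 for Tubb6 (SD 1.56). At such low levels the Tubb1 value depends on the pseudocount, and was 3.60 with 0.1 and 0.41 with 10. Tuba1a (0.96, SD 0.91), Tuba4a (0.74, SD 0.68) and Tubb5 (-0.69, SD 0.61) were just past their pooled SD. The count of higher members was 3 without KO MK B1-4 and 4 without KO MK 2, the 2 libraries of low platelet marker score, and 2 without WT MK 1A or 1B. With the 5 similar WT MK libraries averaged into 1 it was 2 higher and 2 lower. For these library sets the share of all genes past 2-fold was not computed, so the counts have no background. Tuba8 was -0.35 (SD 0.75), and 0.07 after that averaging.

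KO NMK libraries had higher tubulin TPM than WT NMK libraries. The housekeeping score was also higher, at 9.21 to 9.83 in the 11 KO NMK and 8.38 to 9.08 in the 9 WT NMK libraries, with 6 of 16 of its genes at least 2-fold higher and 0 lower, and its part was not tested. Over all kept libraries 4 of 9 members were at least 2-fold higher (12.8% of all 12835 genes) and 1 lower (13.3%), and 0 members were without overlap (0% of genes higher and 0.0545% lower). Without the 2 KO NMK libraries of low housekeeping score 8 were higher (24.1% of 11732 genes) and 1 was lower (7.62%), with a median of 2.08 over members against 0.36 over all genes. Past their pooled SD were Tuba8 (3.68), Tubb5 (2.57, SD 0.85), Tuba1c (2.40), Tuba1b (2.36), Tuba1a (2.08), Tubb4b (1.43) and Tuba4a (1.34). Tubb6 was lower (-1.75, SD 2.71), within its SD. Summed alpha tubulin was 2.19 higher (SD 0.79). Summed beta tubulin was 1.84 higher (SD 0.66) and higher in every KO NMK than in any WT NMK library. Of single genes 0.136% were so, but no such share was computed for sums of genes. No single member was without overlap in either direction (0.0682% of genes lower). Over all kept libraries the sums were 1.51 (SD 1.57) and 1.23 (SD 1.35). Together the 10 members made up 0.449 ± 0.134% of all TPM in the 11 KO NMK and 0.124 ± 0.0721% in the 9 WT NMK libraries.

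**Figure D4:**
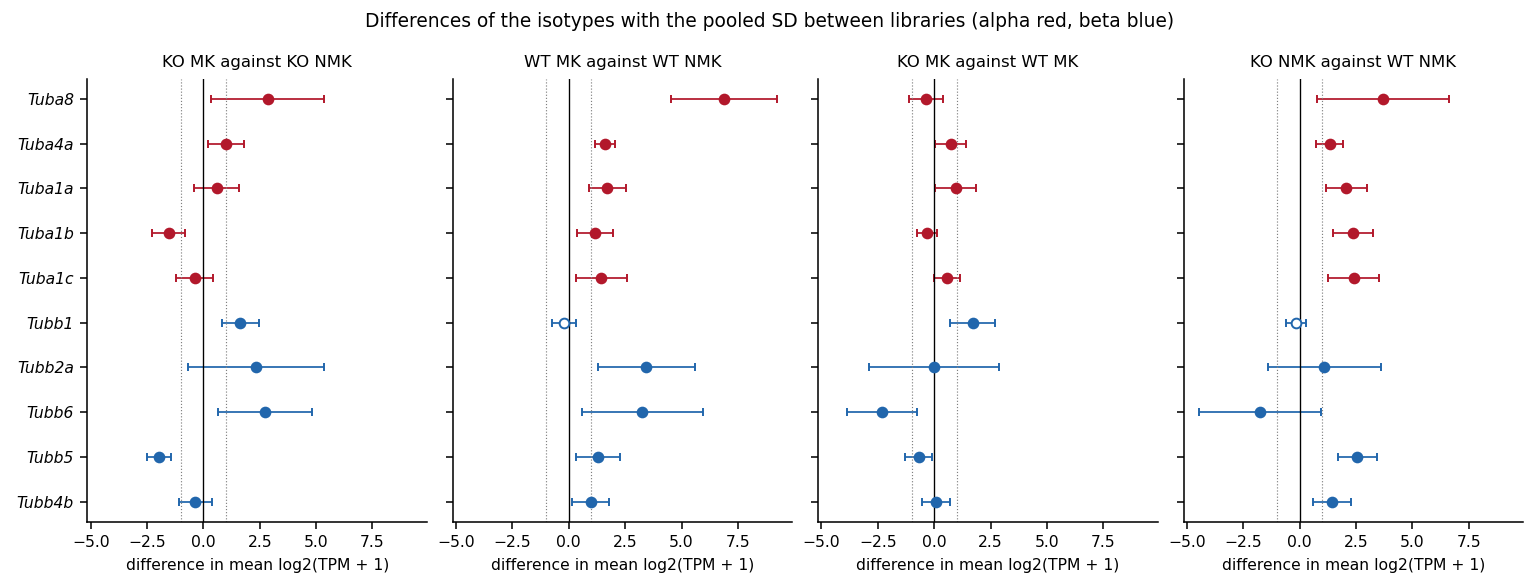
Difference of each isotype in mean log2(TPM + 1) for the 4 comparisons, first-named group minus second, with bars for the pooled SD between cells, dotted lines at 2-fold, open circles where both means are below 1 TPM, and the 2 KO NMK libraries of low housekeeping score left out. Tubb5 lies at -1.98 for MK against NMK cells in KO and at 1.28 in WT.

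The MK against NMK difference of Tubb5 thus had opposite signs in KO (-1.37, or -1.98 without the 2 libraries) and WT cells (1.28), and that contrast was not tested. Neither sign held under every alternative. With all libraries the WT difference was -0.17, where the added WT libraries had housekeeping scores of 3.28 to 5.17. Within prefix B1, the 2 low libraries included, the KO difference was 0.53. Tubb5 means were 342.2 ± 201.2 TPM in KO MK, 508.4 ± 155.7 in WT MK, 1234.6 ± 311.3 in KO NMK and 272.5 ± 230.0 TPM in WT NMK libraries. The KO NMK mean was thus the highest of the 4.

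The mitosis score, a mean log2(TPM + 1) of 22 genes of dividing cells, differed between groups as well. It was 2.61 to 6.90 in KO MK, 3.77 to 5.77 in WT MK, 2.29 to 7.16 (median 6.0) in KO NMK and 0.53 to 5.79 (median 1.83) in WT NMK libraries. Of its 22 genes, 22 were at least 2-fold higher in KO NMK than in WT NMK cells without the 2 libraries of low housekeeping score (median 2.91), and 17 with them (median 1.97), where 24.1% and 12.8% of all genes were. In KO MK against KO NMK cells without the 2 libraries 1 was higher and 9 were lower (26.0 and 6.97% of all genes). The part of the mitosis genes in the tubulin differences was not tested. KO NMK 4A, with the lowest KO NMK score of 2.29, had 1276.4 TPM of Tubb5 but 300.9 TPM of Tuba1b. Over the 11 KO NMK libraries Tuba1c (Pearson r 0.94, Spearman rho 0.82) and Tuba1b (0.86 and 0.74) followed the mitosis score, and Tubb5 (-0.19 and -0.10) did not. Without the 2 KO NMK libraries farthest from the median score r was 0.75, 0.61 and -0.47. In the 9 WT NMK libraries Tubb5 did follow the score (r 0.88, rho 0.90). So did Tuba1b (0.79 and 0.88) and Tuba1c (0.68 and 0.55) there. Over all 31 libraries Tubb5 had 0.72 and 0.64. These points share a TPM total and are single cells of 1 group or of all groups, so they are a description.

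**Figure D5:**
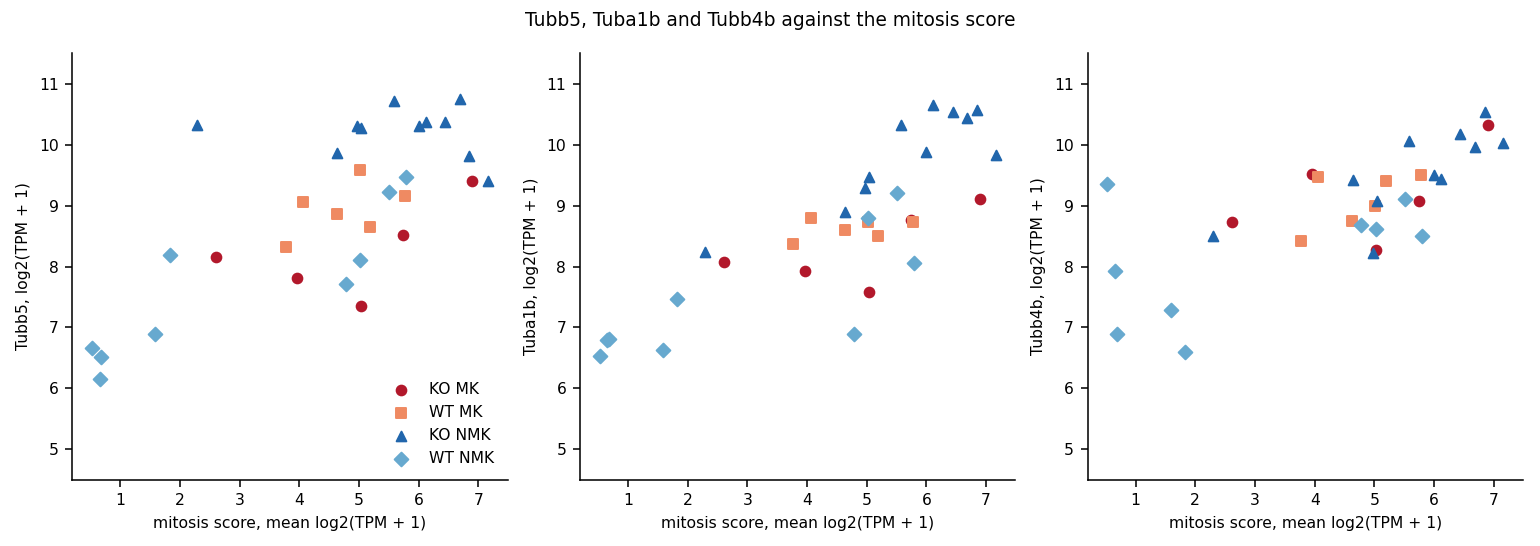
Tubb5 (left), Tuba1b (middle) and Tubb4b (right), as log2(TPM + 1), against the mitosis score of the 31 kept libraries over the housekeeping limit. Tubb5 is flat across KO NMK cells, at 679.6 to 1719.7 TPM over scores of 2.29 to 7.16, while Tuba1b is lowest in the KO NMK cell with the lowest score.

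Genes that fold, modify, nucleate or move microtubules were read beside the members, as counts at least 2-fold apart among genes of 1 TPM or more. The same shares of all genes apply to each list: 37.4% higher and 5.22% lower in WT MK against WT NMK, 26.0 and 6.97% in KO MK against KO NMK without the 2 libraries (34.2 and 3.84% with them), 12.4 and 9.27% in KO MK against WT MK, and 24.1 and 7.62% in KO NMK against WT NMK without the 2 libraries (12.8 and 13.3% with them). The folding cofactors and the CCT chaperonin, which fold new tubulin, had 10 of 20 higher and 0 lower in WT MK against WT NMK cells (median 0.94, all genes 0.70), and 1 higher and 0 lower of 20 in KO MK against KO NMK cells without the 2 libraries (median 0.05, all genes 0.36). They had 0 higher and 1 lower of 20 in KO MK against WT MK cells, and 9 higher and 3 lower of 19 in KO NMK against WT NMK cells (median 0.88, all genes 0.36) without the 2 libraries. With them, 0 of 20 were higher and 6 lower in KO NMK against WT NMK cells (median -0.06), and 8 of 20 higher and 0 lower in KO MK against KO NMK cells (median 0.77). Cct3, a chaperonin subunit, was at 535.1 TPM in KO NMK and 172.3 TPM in WT NMK cells (1.72, SD 0.60), and at 414.2 TPM in WT MK cells. The prefoldin gene Pfdn4 differed by -1.39 (SD 0.76) between KO MK and WT MK cells.

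The gamma-tubulin ring complex, which seeds microtubules, had 6 of 10 higher and 0 lower in WT MK against WT NMK cells (median 1.27, all genes 0.70) and 6 of 10 higher and 0 lower in KO NMK against WT NMK cells without the 2 libraries (median 1.28, all genes 0.36), or 3 of 10 with them (median 0.90, all genes 0.20). It had 2 higher and 2 lower of 10 in KO MK against KO NMK cells without the 2 libraries, 3 higher and 0 lower with them, and 0 past 2-fold in KO MK against WT MK cells. Gamma-tubulin itself, Tubg1, averaged 37.6 TPM in KO MK, 35.8 in WT MK, 78.4 in KO NMK and 19.0 TPM in WT NMK libraries. Among the other tubulin genes, Tubb3 and Tubb2b, beta isotypes known from neurons, averaged 16.3 and 10.6 TPM in KO MK cells. Tubb3 rested on 1 library, KO MK 1B, with 80.2 TPM, against 1.1 TPM or less in the other 4.

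Enzymes that add or remove tubulin tail groups showed 3 of 11 higher in WT MK against WT NMK cells, a smaller share than the 37.4% of all genes, and 0 higher and 1 lower of 11 in KO MK against WT MK cells. The 1 lower gene was Ttll12 (-1.42, SD 0.93), a member of the tubulin tyrosine ligase-like family. Microtubule-associated proteins had 5 higher and 1 lower of 11 in WT MK against WT NMK cells and 2 higher and 2 lower of 13 in KO MK against KO NMK cells without the 2 libraries, or 5 higher and 1 lower with them. Among them Stmn1, which sequesters tubulin dimers, differed by -2.64 (SD 0.97) between KO MK cells, with a mean of 1426.8 TPM, and these KO NMK cells, with 6153.1 TPM. It was at 365.2, 480.2 and 444.2 TPM in KO MK 1B, B1-3 and 1A, and at 2229.4 and 3615.0 TPM in KO MK B1-4 and 2, the 2 libraries of low platelet marker score. The difference was -1.43 (SD 1.36) between WT MK cells, whose mean was 1206.1 TPM, and WT NMK cells, at 4912.7 TPM. Map1lc3b, an autophagy protein first found on microtubules, was at 471.3 TPM in KO MK and 263.7 TPM in WT MK cells (0.85, SD 0.26). Of the motors, Kif11, the spindle kinesin that is also in the mitosis list, differed by 4.11 (SD 2.42) for KO NMK against WT NMK and by -1.80 (SD 1.63) for KO MK against KO NMK, both without the 2 libraries. Dynlt3, a dynein light chain, was 1.08 higher (SD 0.65) in KO MK than in WT MK cells. Ttc5, which recognises nascent tubulin chains in the decay of tubulin mRNA when free tubulin is plentiful, was 1.23 higher (SD 0.65) in KO MK than in WT MK cells.

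The genes whose pattern was most like Tubb1, by Pearson correlation of log2(TPM + 1) over the 31 libraries among 4880 genes, were Alox12 (0.84), Ly6g6f (0.83), Thbs1 (0.81), Clec1b (0.69), Gcsam (0.69), Slpi (0.68), Mir7678 (0.67) and Slamf1 (0.66). Their Spearman correlations were 0.11 to 0.37, so the likeness rests on the few libraries with Tubb1. Thbs1 averaged 287.2 TPM in KO MK and 4.75 TPM in WT MK cells and was listed at 0 in NMK cells of both genotypes. Thbs1 and Clec1b are among the 18 platelet markers. For Tuba8, by a rule added after its values were seen, they were Scarb1 (0.78), Iars (0.77), Rad9a (0.75) and Ppp1ca (0.74), with Spearman correlations of 0.60 to 0.71. None of these 4 is among the platelet markers, and no gene was in both sets of 8. The libraries fall into groups that share their levels, so these correlations describe the order of groups as much as of cells.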

How the data were processed

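Values were TPM per gene, deposited by the authors in a table of all libraries and a table without outliers, each with 1 decimal, so the depth of a library is unknown. Per the submitters' processing notes, FastQC 0.11.7 was run, as were STAR 2.6.1e, featureCounts 1.6.2 and cutadapt 1.9.1, and the build was mm10. Not given in the sources used here: the annotation, strand setting, treatment of multiply mapped reads, step from counts to TPM, and outlier rule. The labels cover 90 samples, of which 44 are not analysed here. A single column (1) of the larger deposit had no matching label and stayed unused. Groups come from the genotype and cell type labels.

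Levels were compared as mean log2(TPM + 1), with a pseudocount of 1, between groups for genes averaging 1 TPM or more in either group, beside the pooled SD between cells. Shares needed a family sum of 10 TPM. With 1 sample a group no test was made and no p-value is given. Exact (Clopper-Pearson) 95% intervals cover counting error only and take each library as a separate cell. A housekeeping score under 6 marked low libraries, a limit set with results known. The members, gene lists and rules were chosen with earlier results of these data known. Text names all 10 members, Runx1, Pf4, up to 4 genes per microtubule list and comparison (largest difference at a mean of 10 TPM), and the 8 genes most correlated with Tubb1. The same rule for Tuba8, and single values of Ly6a, were added after the values were seen. Alternatives were other pseudocounts, filters, scalings, averages and library sets, and leaving out each library. The scripts were tested on simulated data. Python 3.11.15, numpy 2.4.6, pandas 2.3.3, scipy 1.17.1, matplotlib 3.10.9 and biopython 1.88 were used. Promoter sequences are from RefSeq, which matched 9 of 10 members. Some coding ends are not reported here.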

Additional observations from a re-analysis of the deposited data

Results flagged for a closer look

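Of 42 groups of 4 to 10 libraries searched for a library far from the rest, 8 held one. The nominal chance rate of about 1 in 20 cannot be set against this count. Tubb1 was at 0 TPM in the other WT MK libraries, where any value stands apart, and its shares repeat its levels. For Tubb1 the libraries far from the rest were WT MK B1-1 and WT NMK 4A. WT MK B1-1 was at 0.14 on the log2(TPM + 1) scale (0.1 TPM) and 0.00674% of beta tubulin. WT NMK 4A was at 2.04 (3.1 TPM) and 1.47%. WT NMK 1A stood apart for Tuba4a at 7.22 (148.2 TPM) and for Tubb2a at 7.43 (171.9 TPM). KO MK 1B stood apart for Tubb6, at 0.58 (0.5 TPM). In WT NMK 1B Tuba4a and Tuba8 gave 46.8% of alpha tubulin.

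Libraries that the authors left out also held values above every WT library. KO NMK B1-1a, with a housekeeping score of 9.73, had 273.7 TPM of Tuba4a, 1009.6 of Tubb5, 994.2 of Tubb4b, 1073.7 of Tuba1b and 742.2 TPM of Tuba1c. KO MK 1 had 131.0 TPM of Tubb1, 372.7 of Tubb2a and 1266.9 TPM of Tuba1a.

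The MK minus NMK difference of Tubb5 was -1.37 in KO cells and 1.28 in WT cells, and the difference between these was not tested. Over all libraries, left-out WT libraries of low housekeeping score included, the WT value was -0.17. Within prefix B1, low KO NMK libraries included, the KO value was 0.53.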

How the results depend on the processing

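No paired analysis was possible because the results come from no test and the replicate numbers do not tie libraries of different groups together. Among values that answer a comparison, 283 under other alternatives stayed within the pooled SD or within 1.5 times the count, 44 moved further and 1 reversed; leaving out single libraries gave 392 and 4. Among single members 487 stayed, 26 moved and 7 reversed. The share of all genes past 2-fold was computed only for the kept libraries, with and without the low KO NMK ones. Member counts under other settings below have no such share to be set against. Where no reason is given, the cause was not tested.

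With all 46 libraries, WT MK against WT NMK gave 14.4 points for the Tuba4a and Tuba8 share, 0.37 for summed alpha, -0.95 for summed beta, -0.76 for Tuba4a, -0.17 for Tubb5, -2.18 for Tubb4b, -0.83 for Tuba1b and -1.03 for Tuba1c, with 2 members higher and 2 lower. KO MK against KO NMK gave 1.94 points for the Tubb1 share and 2 lower, and KO MK against WT MK 2.07 points, 0.49 for summed beta, 6 higher and 0 lower. All WT libraries added here had low housekeeping scores, of 3.28 to 5.17.

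All libraries without those of low housekeeping score gave a Tubb1 share difference of 2.66 points in both KO MK comparisons, with 3 lower in each. A housekeeping score of 8 or more gave 2.96 points in both, with 2 lower in each and 2 higher against WT MK. Adding to the kept libraries the left-out ones of that score (chosen, like that limit and prefix B1 without low libraries, after seeing the data) gave 2.81 points against KO NMK and 2.96 against WT MK, with 2 higher and 2 lower.

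In KO MK against KO NMK, 2 members were lower without the low libraries, without a title prefix, by ratios of means and by medians. Titles of prefix B1 gave 1.08 for summed beta and 0.53 for Tubb5, with 0 lower, where 2 of 5 KO NMK libraries are the low ones. Without those, prefix B1 gave -0.18 for Tubb2a and -0.042 for Tuba1a, with 3 higher.

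In KO MK against WT MK, averaging the similar WT MK libraries gave 2 higher and 2 lower, no prefix and a pseudocount of 0.1 each gave 2 lower, a pseudocount of 10 or a mean of 10 TPM gave 0 higher, ratios of means 3 and medians 4. Leaving out 1 library gave 1 to 4 higher. WT MK against WT NMK gave 4 higher by ratios of means. KO NMK against WT NMK gave 8 higher without the low libraries, and 7 over all libraries without low ones, at a score of 8 or more, without a prefix and by ratios of means. Precision is limited by the number of cells, and depth is unknown.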
